A study of Homo sapiens with 36 samples.

Results

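The homologous recombination and Fanconi genes described here were 35 genes chosen by symbol, and 31 of them were measured in HK-2 cells among 11092 genes tested. For BRCA2, RBBP8, FANCA and FANCD2 no probe set named the gene alone in the annotation used, and they were not analysed here. A gene was measured where one of its probe sets lay above a log2 value of 4, taken as the floor of detection, on at least 3 of 36 arrays, and it was read from its probe set with the highest mean. Of the 31 genes, 25 lay above 4 on all 36 arrays, and the others were BLM (26 arrays), FANCB (30), FANCM (31), BRIP1 (32), XRCC3 (33) and DDIAS (34).

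HK-2 is an immortalized line derived from human kidney proximal tubule. Cultures were near confluent when they were given a compound or vehicle, and each of 12 groups held 3 biological replicates, 1 array each. In the first set of 18 arrays, cells received CdCl, Di or vehicle, and RNA was taken after 12 h and after 48 h. In the second set of 18, Kbr was given at a high or a low dose, with vehicle cultures beside them, and the times were 24 h and 48 h. The labels do not spell out the compounds or give their concentrations, and every group was grown with EGF, insulin and hydrocortisone. All groups are one cell line, so the values speak for that line under these conditions. The series asked for expression signatures of kidney toxicity.

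Homologous recombination repairs a broken chromosome by copying the sister chromatid, so it works mainly in S and G2 phase. The MRE11-RAD50-NBN complex and the nuclease EXO1 cut back the broken end, BRCA1 with BARD1 and PALB2 prepares the end for strand exchange, RAD51C, XRCC2, XRCC3 and the RAD54 proteins help the end to pair with its template, and BLM with TOP3A, RMI1 and RMI2 takes the joined molecules apart. The Fanconi pathway deals with crosslinks between the strands: a core complex whose ligase is FANCL, with the conjugating enzyme UBE2T, attaches ubiquitin to the pair of FANCD2 and FANCI. Many of these genes are expressed most strongly in dividing cells, and in the kidney the tubular epithelium divides little unless it is injured.

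The arrays of a group resembled each other closely, with correlations of 0.982 to 0.995 across kept probe sets. For beta-actin, the 3' probes exceeded the 5' probes by more in the first set, a measure tied to RNA quality, with group means on the log2 scale of 1.40 to 1.84 against 0.866 to 1.06 in the second set. Within the first set it was lowest in Di at 12 h (1.40) and highest in vehicle at 12 h (1.84). Its part in the results below was not tested. Of 22 markers of proximal tubule and renal epithelium 8 were measured, among them PAX8, CDH6, the keratins KRT8 and KRT18 and the transporters SLC3A1 and SLC4A4 (means of 7.83 and 11.2). Other defining markers of the proximal tubule lay below 4, among them the endocytic receptors LRP2 and CUBN and the transporters SLC34A1, SLC5A2 and SLC22A6. Of 6 distal nephron markers 2 were measured, SCNN1A (mean 8.15) and SLC12A1 (3.85). No endothelial marker of 5 and no leukocyte marker of 6 was measured, and 3 of 7 fibroblast markers were (COL1A1, DCN and LUM).

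The promoters of 26 of the 31 genes were in a RefSeq table of the build GRCh38.p14, as the 250 bases before the transcription start. They were searched on both strands for the letters of E2F sites (TTCCCGC, with the variant TTCGCGC, the variant TTGCCGC and the variant TTGGCGC) and of CCAAT boxes (CCAAT), since both are common before genes of dividing cells. E2F letters stood in 10 of the 26 promoters (38.5%), against 13% of 27305 genes in the table and 22 of 35 replication and G1/S genes (62.9%). CCAAT letters stood in 14 of the 26 (53.8%), against 37.0% of all genes. The 10 genes with E2F letters were BRCA1, RAD54L, RAD51AP1, BLM, TOP3A, RMI1, EME1, FANCC, FANCG and FANCL. A match is a description of the letters and no proof of a binding site. Promoters of 4 genes are shown because their differences were among the larger ones and they took unlike courses: BLM (chr15:90717096-90717345, plus strand), BRIP1 (chr17:61863529-61863778, minus strand), DDIAS (chr11:82901486-82901735, plus strand) and FANCL (chr2:58241326-58241575, minus strand). Each is written 5′ to 3′ along the gene and ends at the base before its start, with matches in capitals (the CCAAT box also as its complement, ATTGG; E2F matches are TTCCCGC or its complement, GCGGGAA).
BLM: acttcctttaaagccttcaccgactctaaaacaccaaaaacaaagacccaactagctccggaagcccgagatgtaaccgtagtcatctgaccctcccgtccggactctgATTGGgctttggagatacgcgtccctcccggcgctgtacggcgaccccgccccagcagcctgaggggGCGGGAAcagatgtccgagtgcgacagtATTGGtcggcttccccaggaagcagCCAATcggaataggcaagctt
BRIP1: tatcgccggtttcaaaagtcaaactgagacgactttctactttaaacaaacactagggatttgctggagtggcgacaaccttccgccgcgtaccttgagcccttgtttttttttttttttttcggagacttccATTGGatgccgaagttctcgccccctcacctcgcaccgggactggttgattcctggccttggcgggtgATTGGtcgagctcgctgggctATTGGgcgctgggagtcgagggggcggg
DDIAS: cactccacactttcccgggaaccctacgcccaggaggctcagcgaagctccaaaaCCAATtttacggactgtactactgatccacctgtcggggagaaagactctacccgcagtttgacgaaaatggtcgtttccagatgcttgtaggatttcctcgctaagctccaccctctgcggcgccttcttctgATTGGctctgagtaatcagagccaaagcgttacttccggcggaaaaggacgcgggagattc
FANCL: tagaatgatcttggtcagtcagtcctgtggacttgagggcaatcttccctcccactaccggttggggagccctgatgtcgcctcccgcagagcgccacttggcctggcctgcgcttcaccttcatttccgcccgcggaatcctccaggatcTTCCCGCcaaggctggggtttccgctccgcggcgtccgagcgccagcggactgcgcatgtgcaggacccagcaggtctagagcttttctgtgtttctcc
BLM held 1 E2F match and 3 CCAAT boxes, BRIP1 held 3 CCAAT boxes, DDIAS held 2, and FANCL held 1 E2F match and no CCAAT box.

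In vehicle-treated cultures, most of the genes were lower at the later time in the first set, and a minority in the second. All values below are log2 expression, and a difference of 1 is a 2-fold change. In the first set, 22 of the 31 genes fell in vehicle at 48 h against vehicle at 12 h and 2 rose (limma, adjusted p under 0.05 over all genes tested), where 45.7% of the 11092 genes were called, 27.3% lower and 18.3% higher. The fall was at least 2-fold for 16 of them, and the median difference of the 31 was -1.01. Since RNA was taken from whole cultures, fewer cells expressing a gene and less RNA per cell cannot be told apart, here and in every result that follows. In the second set, 9 fell and 0 rose in vehicle at 48 h against 24 h, where 12.2% of genes were called, 7.16% lower and 5.08% higher, and the median difference was -0.34. At an unadjusted p under 0.05, 1 of the 31 was higher there and 14 were lower. Without control replicate 3 at 24 h, or without control replicate 1 at 48 h, 4 genes fell.

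BLM, the helicase whose loss causes Bloom syndrome, showed the widest fall. Its values were 3.43, 3.70 and 3.78 in vehicle at 48 h, against 7.16, 7.13 and 6.88 at 12 h. All 3 later arrays lay under the floor of 4, so BLM was at least 8.33-fold lower (adjusted p = 3.15e-10). In the second set it read 5.76, 6.18 and 6.64 in vehicle at 48 h, against 7.23, 7.21 and 7.34 at 24 h, and the groups did not overlap. EXO1, which resects DNA ends, fell by 2.98 ± 0.16 (SE) between 12 h and 48 h and by 1.05 ± 0.16 between 24 h and 48 h. DDIAS, a gene named for suppressing apoptosis after DNA damage, fell by 3.00 ± 0.34 and 1.69 ± 0.34 over these intervals. BRIP1, the helicase that binds BRCA1, fell by 2.67 ± 0.17 and 0.56 ± 0.17, and BARD1, the partner of BRCA1 in its ligase, fell by 2.39 ± 0.19 over the longer interval. BRIP1 was not called over the shorter interval with the mean of its probe sets (-0.50, adjusted p = 0.120). Every 48 h treatment was compared with these lowered vehicle levels. The 2 genes that rose were RAD50 (0.46 ± 0.16) and FANCF (0.50 ± 0.17), a subunit of the core complex. All 33 genes of G2/M and mitosis and 36 of 39 replication and G1/S genes were also lower in vehicle at 48 h against 12 h, as were 25 of 33 and 21 of 39 at 48 h against 24 h. Their part in the falls of the recombination genes was not tested.

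**Figure D1:**
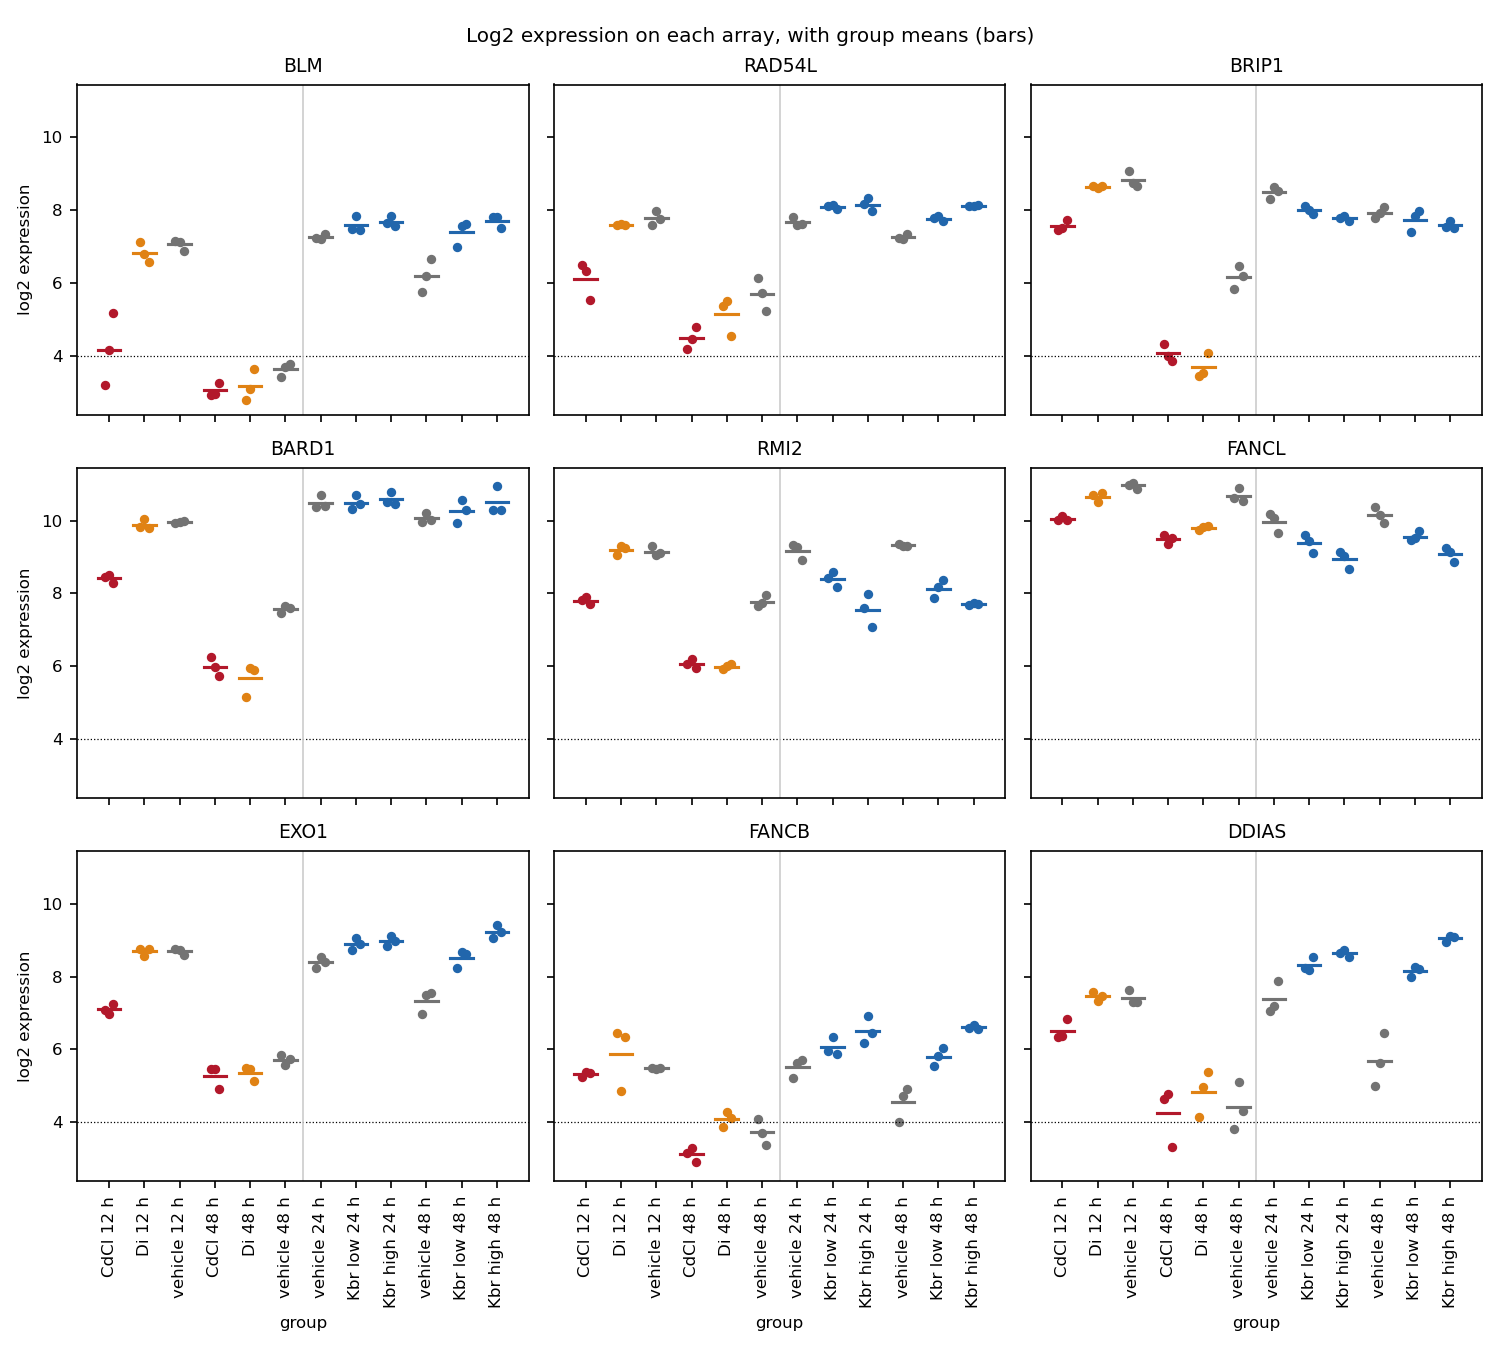
Log2 expression (y axis) of 9 genes on each of the 36 arrays, by group (x axis). Points are single arrays, bars are group means and the dotted line is the floor of 4. BLM, BRIP1 and EXO1 were lower at 48 h than at 12 h in vehicle cultures, and DDIAS at 48 h averaged 5.68 in vehicle, 8.15 in low Kbr and 9.05 in high Kbr.

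CdCl at 12 h lowered the recombination genes broadly. Of the 31 genes, limma called 24 lower and 0 higher (0 higher also at an unadjusted p under 0.05), where 43.9% of all genes were called, 30.5% lower and 13.4% higher. At least 2-fold falls were found for 10, and the median of the 31 was -0.78, against -0.16 over all genes tested. Every role had a call except the group of RAD51C, XRCC2 and XRCC3: 4 of 4 genes of the BRCA complex fell, 4 of 4 of end resection, 3 of 3 of the RAD54 group, 5 of 7 of joint-molecule processing, 5 of 7 of the Fanconi core, and both UBE2T and FANCI. RAD51C, XRCC2 and XRCC3 had differences of -0.15, 0.16 and -0.27, none of which passed the test. Of the 24 falls, 19 passed whichever single array was left out. Those lost without 1 array were NBN (adjusted p = 0.110 without control replicate 2), WRN (0.0564 without CdCl replicate 3), FANCE (0.0925 without control replicate 2), FANCM (0.0785 without control replicate 1) and DDIAS (0.115 without control replicate 1), which was lost without any one of 5 arrays. With only the 18 arrays of the set in the fit, 23 were lower and 1 was higher, where 5627 of all genes were called.

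BLM had the largest fall at 12 h. It read 3.19, 4.15 and 5.16 in CdCl, against 7.16, 7.13 and 6.88 in vehicle, a difference of -2.89 ± 0.30 (adjusted p = 1e-08). The CdCl arrays were spread widely, with 1 under the floor, and none reached the vehicle arrays. RAD54L, a motor protein that helps DNA strands to pair, read 6.49, 6.33 and 5.52 in CdCl, against 7.59, 7.98 and 7.76 in vehicle, and fell by 1.66 ± 0.22. FANCG, a core complex subunit, read 6.06, 5.69 and 6.27 in CdCl, against 7.38, 7.89 and 7.65 in vehicle, and fell by 1.63 ± 0.19. EXO1 read 7.08, 6.97 and 7.25 in CdCl, against 8.77, 8.72 and 8.60 in vehicle, and fell by 1.60 ± 0.16. In all 3 the groups were well apart, but for BLM, RAD54L and FANCG non-overlap was a condition of being shown. BARD1 (-1.55 ± 0.19), RMI2 (-1.34 ± 0.16), BRCA1 (-1.28 ± 0.20) and BRIP1 (-1.27 ± 0.17) fell by more than 2-fold as well. RMI2 is the small subunit that stabilizes the BLM complex. For FANCI, another of its probe sets was called in the opposite direction, and with the mean of its probe sets the call was lost, so its fall of 0.67 ± 0.11 rests on the probe set chosen. The fall of NBN (-0.26 ± 0.09) was lost with that mean too (-0.09, adjusted p = 0.495).

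CdCl at 48 h gave 16 falls and 0 rises (0 higher also at an unadjusted p under 0.05 in limma), where 42.7% of all genes were called, 22% lower and 20.7% higher. The median of the 31 was -0.47, against -0.01 over all genes, and 10 falls were at least 2-fold. All 16 had also fallen at 12 h, as had 61% of all genes that fell at 48 h. BRIP1 read 4.33, 4.0 and 3.86 in CdCl, against 5.84, 6.45 and 6.19 in vehicle, and fell by 2.10 ± 0.17 (adjusted p = 5.43e-11). Its CdCl mean of 4.06 was close to the floor, and its 1 other probe set was lower too but not called. RMI2 read 6.06, 6.20 and 5.95 in CdCl, against 7.64, 7.73 and 7.95 in vehicle, and fell by 1.70 ± 0.16. FANCI, the partner of FANCD2, read 7.06, 6.81 and 7.01 in CdCl, against 8.01, 8.33 and 8.20 in vehicle, and fell by 1.22 ± 0.11. These 3 genes showed no overlap between the groups, which for BRIP1 and RMI2 was a condition of being shown. BARD1 fell by 1.59 ± 0.19 and RAD51AP1, which binds DNA and helps strands to pair, by 1.37 ± 0.21. Leaving out 1 array ended the calls of EXO1 (adjusted p = 0.204 without CdCl replicate 3), MRE11 (0.0885 without CdCl replicate 2) and WRN (0.0620 without CdCl replicate 2), and FANCE lost its call without any one of the 6 arrays (0.104 without CdCl replicate 2). BLM read 2.93, 2.94 and 3.26 in CdCl, against 3.43, 3.70 and 3.78 in vehicle, all under the floor, so no fold is given. With only the 18 arrays of the set in the fit, 15 genes were lower and 1 was higher, where 5401 of all genes were called.

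The CdCl effect itself changed between the times for 9 genes, 7 upward and 2 downward, where 24.2% of all genes changed, 16.4% upward and 7.78% downward. The test was the interaction of treatment and time. BLM was one of the 7, but both its 48 h groups were under the floor, so the size of its change is not given. EXO1 moved by 1.15 ± 0.22, RAD54B by 0.78 ± 0.24 and MUS81, a nuclease that cuts joint molecules, by 0.77 ± 0.23, so their differences were nearer 0 at 48 h. RAD50 moved by 0.76 ± 0.23, PALB2 by 0.71 ± 0.20 and UBE2T by 0.56 ± 0.19, with 48 h differences of 0.01, 0.02 and 0.01. BRIP1 (-0.83 ± 0.24) and FANCI (-0.55 ± 0.15) moved the other way and were lower relative to vehicle at 48 h than at 12 h. With the mean of their probe sets the changes of RAD50 (0.43, adjusted p = 0.108) and BRIP1 (-0.13, 0.783) were no longer called.

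With Di, no gene of the 31 passed the test at 12 h and 18 did at 48 h. At 12 h, limma called 0 of the 31, where 6.27% of all genes were called (1.67% higher and 4.6% lower), and 5 had an unadjusted p under 0.05 (RAD51C, FANCG, MRE11, FANCL and FANCF). With only the 18 arrays of the set in the fit, 2 were called, where 1446 of all genes were, instead of 695. Without Di replicate 2 it was 1, where 353 of all genes were called. A probe set of BRCA1 other than the one used was called lower (-0.68 ± 0.18, adjusted p = 0.0210), where the one used gave -0.06 ± 0.20. The median of the 31 was -0.06, against -0.07 over all genes. BLM read 7.11, 6.79 and 6.57 in Di, against 7.16, 7.13 and 6.88 in vehicle, and EXO1 read 8.75, 8.55 and 8.76 in Di, against 8.77, 8.72 and 8.60 in vehicle. These groups overlapped. FANCB, a core subunit encoded on the X chromosome, was uneven at 6.45, 4.84 and 6.33 in Di, against 5.47, 5.46 and 5.50 in vehicle.

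At 48 h, Di lowered 14 of the 31 genes and raised 4, where 43% of all genes were called, 23.9% lower and 19.1% higher. With each array centred on its median, more of all genes were higher (2609) than lower (2291). The median of the 31 was -0.35, against -0.01 over all genes. BRIP1 read 3.43, 3.53 and 4.08 in Di, against 5.84, 6.45 and 6.19 in vehicle, so it was at least 4.47-fold lower (adjusted p = 1.21e-12). BARD1 read 5.16, 5.94 and 5.90 in Di, against 7.45, 7.65 and 7.60 in vehicle, and fell by 1.90 ± 0.19. RMI2 read 5.91, 6.01 and 6.05 in Di, against 7.64, 7.73 and 7.95 in vehicle, and fell by 1.79 ± 0.16. FANCG read 4.52, 5.36 and 5.03 in Di, against 6.75, 6.75 and 6.38 in vehicle, and fell by 1.66 ± 0.19. In these 4 genes every Di array lay more than 1 log2 unit under every vehicle array. For BRIP1, BARD1 and RMI2, groups without overlap were a condition of being shown. The genes that rose were EME1, the partner of MUS81 (0.58 ± 0.16), WRN, the helicase and exonuclease of Werner syndrome (0.56 ± 0.14), RAD50 (0.41 ± 0.16) and RAD51C (0.40 ± 0.11). RAD50 lost its call without any one of the 6 arrays (adjusted p = 0.157 without control replicate 2), and its mean over probe sets turned to -0.19, so its direction depends on the probe set. EME1 and the fall of NBN (-0.56 ± 0.09) lost their calls with the mean of their probe sets (adjusted p = 0.0721 and 0.0902). The falls of 2 genes were lost without 1 array, BRCA1 (adjusted p = 0.0972 without Di replicate 1) and RAD54L (0.367 without Di replicate 3), whose groups overlapped.

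The Di effect changed between 12 h and 48 h for 13 genes, 10 downward and 3 upward, where 29% of all genes changed, 13.9% downward and 15.1% upward. RMI2 moved by -1.84 ± 0.22, BARD1 by -1.82 ± 0.27 and FANCG by -1.23 ± 0.27. BRIP1 and FANCM were also among the 10, but their Di means at 48 h were under the floor, so no size is given. The 3 upward were EME1 (0.79 ± 0.23), RAD50 (0.66 ± 0.23) and WRN (0.62 ± 0.20). With the mean of probe sets the changes of EME1 (adjusted p = 0.126), RAD50 (0.690), NBN (0.156) and FANCM (0.304) were no longer called.

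Set directly against each other, CdCl and Di differed in 25 of the 31 genes at 12 h and in 9 at 48 h. At 12 h, 25 of the 31 genes were lower in CdCl than in Di and 0 were higher (0 also at an unadjusted p under 0.05 in limma), where 35.6% of all genes differed, 22.1% lower and 13.6% higher. BLM was lower in CdCl by 2.65 ± 0.30, EXO1 by 1.59 ± 0.16 and RAD54L by 1.48 ± 0.22. NBN (adjusted p = 0.252) and FANCI (0.0596) were no longer called with the mean of probe sets. At 48 h, 6 were lower and 3 higher in CdCl, where 37.6% of all genes differed, 17.1% lower and 20.5% higher (2009 higher and 2162 lower with median centring). WRN was lower in CdCl by 1.04 ± 0.14 and MRE11, the nuclease of the end-binding complex, by 0.90 ± 0.19. Higher in CdCl were UBE2T (0.58 ± 0.14), FANCG (0.57 ± 0.19, with overlapping groups) and NBN (0.42 ± 0.09). The other 3 probe sets of NBN had the opposite sign (-0.08 to -0.03, none called), and with the mean of probe sets NBN (0.07, adjusted p = 0.653), EME1 (-0.21, 0.239) and FANCB (-0.44, 0.141) were no longer called. The doses of the compounds are not stated, so these differences hold for the cultures as treated. Each compound was compared with the same vehicle arrays at 48 h. Against them BARD1 had -1.59 in CdCl and -1.90 in Di, and RMI2 had -1.70 and -1.79. BRIP1 had -2.10 in CdCl and was at least 4.47-fold lower in Di.

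**Figure D2:**
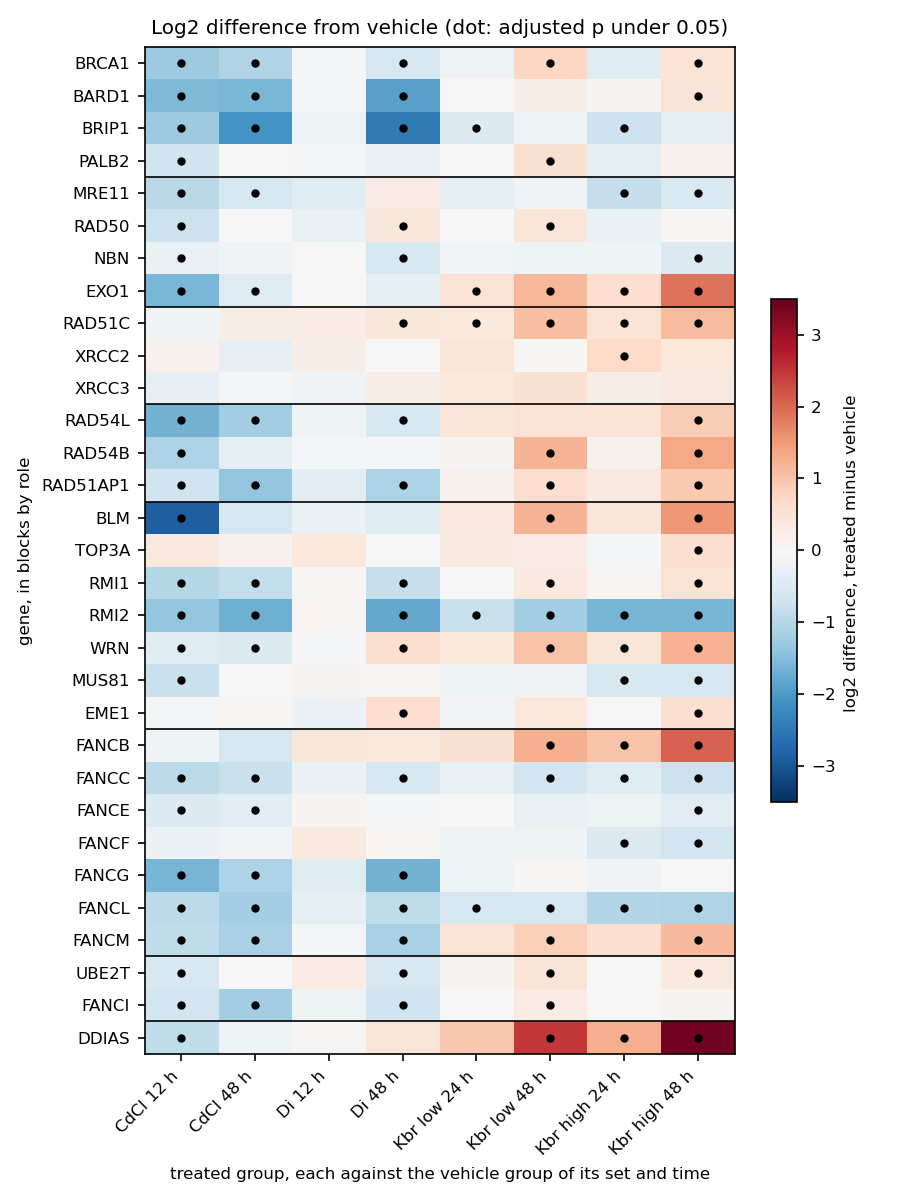
Log2 difference from the matching vehicle (colour, blue lower and red higher) for the 31 genes (rows, by role) in 8 comparisons (columns). Dots mark adjusted p under 0.05. The CdCl columns hold falls only (24 at 12 h and 16 at 48 h), Di at 12 h holds no dot, and the high and low Kbr columns at 48 h hold 16 and 15 rises. Sizes are not exact at 48 h for BLM, FANCB, FANCM and XRCC3 with CdCl, and for BLM, BRIP1, FANCB and FANCM with Di, where a group mean was under the floor.

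At 24 h, Kbr raised some of the genes and lowered others, in shares close to those of all genes. At the high dose, 6 genes rose and 7 fell, where 40.7% of all genes were called, 15.4% higher and 25.3% lower, and the median of the 31 was 0.00. DDIAS read 8.63, 8.74 and 8.53 in high Kbr, against 7.05, 7.20 and 7.88 in vehicle, and rose by 1.26 ± 0.34 (adjusted p = 0.00452). FANCB read 6.17, 6.92 and 6.46 in high Kbr, against 5.22, 5.62 and 5.72 in vehicle, and rose by 1.00 ± 0.28. EXO1 rose by 0.59 ± 0.16 and RAD51C by 0.48 ± 0.11. The groups did not overlap in any of these 4, which for DDIAS was a condition of being shown. RMI2 read 7.60, 7.97 and 7.08 in high Kbr, against 9.32, 9.28 and 8.92 in vehicle, and fell by 1.62 ± 0.16. FANCL, the ubiquitin ligase of the core complex, read 9.13, 9.02 and 8.66 in high Kbr, against 10.17, 10.07 and 9.66 in vehicle, and fell by 1.03 ± 0.15. MRE11 (-0.83 ± 0.19), BRIP1 (-0.71 ± 0.17) and MUS81 (-0.56 ± 0.16) also fell. Leaving out 1 array ended the rises of WRN (adjusted p = 0.0685 without control replicate 1) and XRCC2 (0.172 without control replicate 3), and the falls of FANCC (0.0841 without control replicate 1) and FANCF (0.0786 without high Kbr replicate 3).

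The low dose at 24 h changed 5 genes, 2 up and 3 down, where 15.2% of all genes were called, 6.93% higher and 8.28% lower. RMI2 fell by 0.79 ± 0.16 (adjusted p = 0.00118), and its call held without each array in turn. FANCL fell by 0.58 ± 0.15 and BRIP1 by 0.48 ± 0.17, and EXO1 rose by 0.50 ± 0.16 and RAD51C by 0.38 ± 0.11. Each of these 4 calls ended without some array, FANCL at adjusted p = 0.0718 without low Kbr replicate 3, BRIP1 at 0.168 without control replicate 2, EXO1 at 0.139 and RAD51C at 0.124 without control replicate 1. BRIP1 also lost its call with the mean of its probe sets (0.334). With the replicate block and only the 18 arrays of the set, 9 of the 31 genes were called. The share of all genes called in that fit is not given here. Without control replicate 1 or without low Kbr replicate 3, 1 was called, and without low Kbr replicate 2, 2 were. DDIAS read 8.24, 8.18 and 8.53 in low Kbr, against 7.05, 7.20 and 7.88 in vehicle, which passed with the replicate number as a block (0.94, adjusted p = 0.0423) and not without it (0.0633).

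At 48 h, rises outnumbered falls at both doses of Kbr. High Kbr raised 16 of the 31 genes and lowered 8, where 61.8% of all genes were called, 27.3% higher and 34.5% lower. Low Kbr raised 15 and lowered 3, where 47% were called, 23.8% higher and 23.2% lower. The medians of the 31 were 0.36 and 0.38, against -0.06 and 0.00 over all genes. The doses share their vehicle arrays.

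DDIAS had the largest rise of the 31 at 48 h. It read 8.94, 9.10 and 9.10 in high Kbr, against 4.98, 5.63 and 6.44 in vehicle, and rose by 3.36 ± 0.34, or 10.3-fold (adjusted p = 2.5e-09). In low Kbr it read 7.99, 8.26 and 8.20 and rose by 2.46 ± 0.34. Every array of either dose lay above every vehicle array. FANCB read 6.58, 6.67 and 6.56 in high Kbr, against 4.0, 4.70 and 4.92 in vehicle, and rose by 2.06 ± 0.28. EXO1 read 9.05, 9.41 and 9.23 in high Kbr, against 6.97, 7.49 and 7.55 in vehicle, and rose by 1.89 ± 0.16. BLM read 7.81, 7.82 and 7.50 in high Kbr, against 5.76, 6.18 and 6.64 in vehicle, and rose by 1.51 ± 0.30. None of these groups overlapped, which for DDIAS, FANCB and EXO1 was a condition of being shown. In high Kbr BLM and EXO1 stood above their 24 h vehicle means of 7.26 and 8.39. RAD51C, which forms a complex with XRCC3, read 9.77, 9.82 and 9.43 in high Kbr, against 8.32, 8.63 and 8.72 in vehicle, and rose by 1.12 ± 0.11. Of its group it alone was called at 48 h, with XRCC2 at 0.36 ± 0.24 and XRCC3 at 0.32 ± 0.31.

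By role, all 3 genes of the RAD54 group rose with high Kbr at 48 h: RAD54B by 1.36 ± 0.17, RAD51AP1 by 0.92 ± 0.21 and RAD54L by 0.86 ± 0.22. Of 7 genes of joint-molecule processing, BLM, WRN (1.23 ± 0.14), EME1, TOP3A and RMI1 rose and RMI2 and MUS81 (-0.60 ± 0.16) fell. RMI2 read 7.67, 7.72 and 7.71 in high Kbr, against 9.36, 9.29 and 9.29 in vehicle, and fell by 1.62 ± 0.16. BLM and RMI2, subunits of one complex, thus went in opposite directions. Of 7 core complex genes, FANCB and FANCM (1.15 ± 0.27), the motor protein that anchors the complex to DNA, rose, and FANCL, FANCC, FANCF and FANCE fell. FANCL read 9.25, 9.15 and 8.85 in high Kbr, against 10.37, 10.14 and 9.93 in vehicle, and fell by 1.07 ± 0.15. The ligase subunit was thus lower while FANCB was higher. In end resection EXO1 rose and MRE11 and NBN (-0.51 ± 0.09) fell. FANCG did not pass the test, with 7.26, 6.89 and 6.81 in high Kbr, against 7.16, 6.88 and 6.97 in vehicle.

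Several of the smaller differences rested on an array. With high Kbr at 48 h, calls ended for BRCA1 (0.48, adjusted p = 0.429 without high Kbr replicate 1), BARD1 (0.45, 0.317 without high Kbr replicate 2), UBE2T (0.33, 0.237 without control replicate 1), MRE11 (-0.53, 0.232 without high Kbr replicate 3), FANCE (-0.36, 0.189 without high Kbr replicate 3), TOP3A (0.57, 0.0707 without control replicate 1) and EME1 (0.57, 0.0574 without control replicate 1). With low Kbr they ended for RAD50 (0.43, adjusted p = 0.160 without control replicate 3), RMI1 (0.33, 0.143 without low Kbr replicate 2), RAD51AP1 (0.58, 0.124 without control replicate 1), FANCI (0.27, 0.117 without low Kbr replicate 1), FANCM (0.84, 0.0909 without control replicate 1) and UBE2T (0.45, 0.0777 without control replicate 1). With the mean of probe sets RAD50 turned to -0.19 in low Kbr, and EME1 in high Kbr (0.16, adjusted p = 0.318) and FANCI in low Kbr (0.31, 0.115) lost their calls. The other calls, 17 with high Kbr and 12 with low Kbr, held without each array. With the replicate block, low Kbr also raised RAD54L (0.51, adjusted p = 0.0377, against 0.0556 without the block) and EME1 (0.38, 0.0458, against 0.0606).

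Between the Kbr doses, the share of the 31 genes called was close to that of all genes. At 24 h, 1 of the 31 genes was called between high and low Kbr, where 4.39% of all genes were, 3.71% as lower. It was RMI2, lower in high Kbr by 0.84 ± 0.16. With the replicate block 4 were called, RMI2 with FANCL (-0.45, adjusted p = 0.0138), MRE11 (-0.49, 0.0362) and MUS81 (-0.41, 0.0475). Without low Kbr replicate 2 or 3 the count was 2. At 48 h, 2 genes were higher and 6 lower in high than in low Kbr, where 23.8% of all genes differed, 6.46% higher and 17.3% lower. EXO1 was higher by 0.72 ± 0.16 and FANCB by 0.80 ± 0.28. FANCF (-0.49 ± 0.17), FANCL (-0.48 ± 0.15), MUS81 (-0.47 ± 0.16), RMI2 (-0.43 ± 0.16), PALB2 (-0.39 ± 0.14, with overlapping groups) and NBN (-0.37 ± 0.09) were lower. Centring each array on its median gave 3 higher and 2 lower, as did quantile normalization, so the excess of lower genes depends on the scaling. Without high Kbr replicate 3 the count was 3, and without low Kbr replicate 2 it was 4. DDIAS was higher in high Kbr by 0.90, which passed with the block (adjusted p = 0.0417) and not without it (0.0577).

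The effect of high Kbr changed between 24 h and 48 h for 7 genes, 6 upward and 1 downward, where 15% of all genes changed, 6.89% upward and 8.1% downward. DDIAS moved by 2.10 ± 0.49, EXO1 by 1.30 ± 0.22, RAD54B by 1.21 ± 0.24, BRCA1 by 0.91 ± 0.29, WRN by 0.79 ± 0.20 and RAD51C by 0.64 ± 0.16. All but BRCA1 had a positive difference at 24 h and a larger one at 48 h. BRCA1 had -0.44 at 24 h and 0.48 at 48 h. NBN moved by -0.36 ± 0.12, but 2 of its 3 other probe sets had the opposite sign, and the mean of probe sets gave -0.13 (adjusted p = 0.632). With only the 18 arrays of the set 4 genes changed, and with the replicate block on those arrays 11 did. For low Kbr 2 genes changed, RAD54B (1.09 ± 0.24) and RAD51C (0.67 ± 0.16), where 4.35% of all genes did (2.54% upward and 1.8% downward), and 7 changed with the replicate block, these with BRCA1, PALB2, EXO1, WRN and DDIAS. RAD51C was no longer called with the mean of its probe sets (0.57, adjusted p = 0.0655). Of the single arrays left out, control replicate 3 at 48 h gave 5 genes, and control replicate 3 at 24 h, control replicate 1 at 48 h, low Kbr replicate 1 at 24 h and low Kbr replicate 2 at 48 h each gave 1. Over the same interval the vehicle levels of DDIAS, EXO1, RAD54B and RAD51C fell, by 1.69, 1.05, 0.90 and 0.61.

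The effects at 48 h ran in opposite directions for several genes. Taking each effect against the vehicle of its own set, the CdCl effect and the high Kbr effect differed for 19 genes, 16 lower and 3 higher with CdCl, where 50.1% of all genes differed, 22.3% lower and 27.9% higher. The Di effect and the high Kbr effect differed for 20 genes, 17 lower and 3 higher with Di, where 43.5% of all genes differed, 19.9% lower and 23.6% higher. Of the 16 genes that fell with CdCl, 8 rose with high Kbr, as did 18.4% of all genes that fell with CdCl, and these were 8 of the 16 that rose with high Kbr (14.8% over all genes). Of the 14 that fell with Di, 7 rose with high Kbr (12.2% over all genes), which was 7 of the 16 rises (10.7%). BARD1 had -1.59 with CdCl, -1.90 with Di and 0.45 with high Kbr, and the effects differed by -2.04 ± 0.27 and -2.35 ± 0.27. RAD51AP1 had -1.37, -1.10 and 0.92. FANCM was at least 1.66-fold lower with CdCl and with Di (adjusted p = 0.00125 and 0.00104), its means lying under the floor, and had 1.15 with high Kbr. These 3 genes were lower with the first 2 compounds and higher with the third. The rise of BARD1 with high Kbr was lost without any one of 3 arrays (limma, adjusted p = 0.317 without high Kbr replicate 2). Only 1 of its 2 other probe sets had the same sign there. For DDIAS the effects differed by -3.53 ± 0.49 with CdCl and -2.95 ± 0.49 with Di, although neither compound moved it past the test at 48 h (-0.16 and 0.42). Its 48 h vehicle mean in the first set was 4.41, near the floor, so a fall there could hardly be seen. MUS81 (0.59 ± 0.23 and 0.68 ± 0.23) and FANCF (0.59 ± 0.24 and 0.70 ± 0.24) were higher relative to vehicle with CdCl and Di than with high Kbr. With the mean of probe sets, the difference of FANCF between Di and high Kbr was not called (0.49, adjusted p = 0.0794), nor was that of NBN between CdCl and high Kbr (0.19, 0.283).

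Vehicle levels at 48 h were not alike in the sets. BLM averaged 3.64 ± 0.19 in the vehicle of the first set and 6.20 ± 0.44 in that of the second (SD, n = 3 each), BARD1 averaged 7.57 ± 0.10 and 10.06 ± 0.14, and BRIP1 6.16 ± 0.31 and 7.93 ± 0.16. Falls of genes already near the floor could not be measured in full, as for BLM, FANCB and DDIAS in the first set. The sets also held different compounds, so compound and set cannot be told apart in these comparisons.

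**Figure D3:**
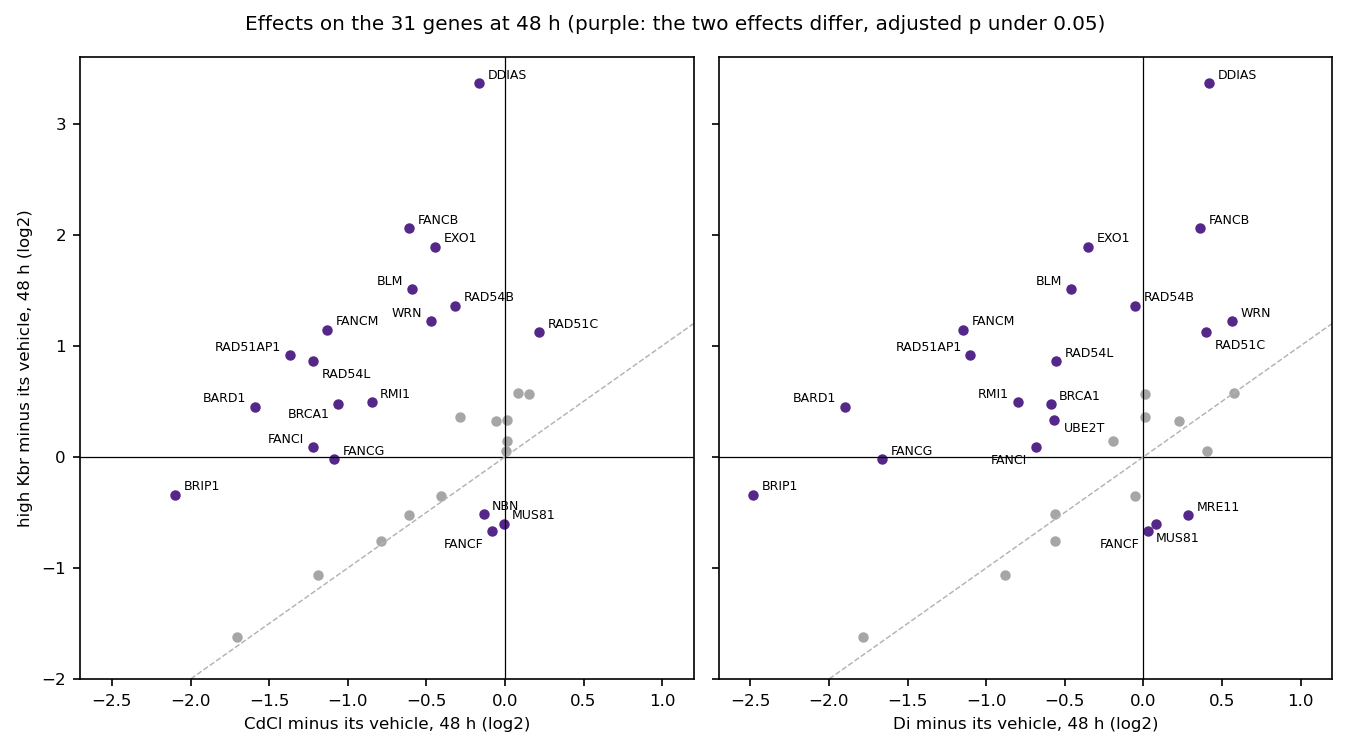
Effects at 48 h on the 31 genes, as log2 differences from the vehicle of the same set. The y axis is high Kbr, the x axis CdCl (left panel) or Di (right panel), purple points are genes whose effects differed (adjusted p under 0.05) and the dashed line marks equal effects. The upper left of each panel holds genes such as BARD1, RAD54L and RAD51AP1, lower with CdCl and Di and higher with high Kbr. The rise of BARD1 with high Kbr was lost without any one of 3 arrays, as was the fall of RAD54L with Di. The x values of BLM, FANCB and FANCM, of XRCC3 with CdCl and of BRIP1 with Di are not exact, since a group mean was under the floor.

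Among the recombination and Fanconi genes measured, FANCL and RMI2 were lowered most regularly, each in 7 of the 8 comparisons with vehicle. The exception was Di at 12 h, where FANCL had -0.31 ± 0.15 and RMI2 0.05 ± 0.16. Treatments shared their vehicle groups, so the 8 comparisons are not independent. How many of all genes tested fell as often was not counted. With low Kbr at 24 h the call of FANCL was lost without any one of 2 arrays, while that of RMI2 held. FANCL with CdCl read 10.02, 10.13 and 10.01 at 12 h, against 10.98, 11.04 and 10.88 in vehicle, and with Di 9.74, 9.83 and 9.85 at 48 h, against 10.62, 10.90 and 10.53 in vehicle. It had no overlap in either. FANCC, also of the core complex, was lower in 6 comparisons and BRIP1 in 5. RAD51C was higher in 5 and lower in none. EXO1 and WRN were lower in 2 each, both with CdCl, and higher in 4 each. XRCC3 passed in none of the 8, and its values lay near the floor in the first set (group means of 3.97 to 4.30).

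Of 48 other genes of the pathway, partners of those above, 44 were measured. With CdCl at 12 h, 2 rose and 26 fell (13.4% and 30.5% over all genes), with a median of -0.41. The largest falls were MND1 (-1.62 ± 0.11), a protein of meiotic recombination, RECQL4 (-1.59 ± 0.29), a helicase, and POLQ (-1.22 ± 0.24), the polymerase of microhomology-mediated joining. With CdCl at 48 h, 3 rose and 18 fell (20.7% and 22% over all genes), with a median of -0.20, and MND1 fell by 2.05 ± 0.11. With Di, 3 fell at 12 h (4.6% over all genes), and 3 rose and 16 fell at 48 h (19.1% and 23.9%). RAD51B, a binding partner of RAD51C, had -1.57 ± 0.25 with Di at 48 h. With high Kbr, 3 rose and 9 fell at 24 h (15.4% and 25.3% over all genes). At 48 h, 14 rose and 14 fell (27.3% and 34.5%), with a median of 0.00. There POLQ rose by 1.89 ± 0.24, while FAAP20 (-2.04 ± 0.27), a core complex partner, RAD51B (-2.03 ± 0.25) and ABRAXAS1 (-1.77 ± 0.22), which joins BRCA1 to ubiquitin chains, fell. With low Kbr, 3 rose and 4 fell at 24 h (6.93% and 8.28% over all genes). At 48 h, 13 rose and 9 fell (23.8% and 23.2%).

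The genes of cell division moved in the same comparisons. Among the 33 mitotic genes, 32 fell with CdCl at 12 h, 30 with CdCl at 48 h, 6 with Di at 12 h and 33 with Di at 48 h. The shares of all genes that fell in these were 30.5%, 22%, 4.6% and 23.9%. With Kbr, 19 rose at the high dose and 12 at the low dose at 24 h (15.4% and 6.93% over all genes). At 48 h, 28 and 27 rose (27.3% and 23.8%). Among the 39 replication and G1/S genes, 33 fell with CdCl at 12 h, 31 with CdCl at 48 h, 2 with Di at 12 h and 33 with Di at 48 h. With high Kbr 5 rose and 14 fell at 24 h (15.4% and 25.3% over all genes). At 48 h, 10 rose and 10 fell (27.3% and 34.5%). With low Kbr 2 rose and 5 fell at 24 h (6.93% and 8.28% over all genes). At 48 h, 12 rose and 6 fell (23.8% and 23.2%). Their part in the values of the recombination genes was not tested.

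**Figure D4:**
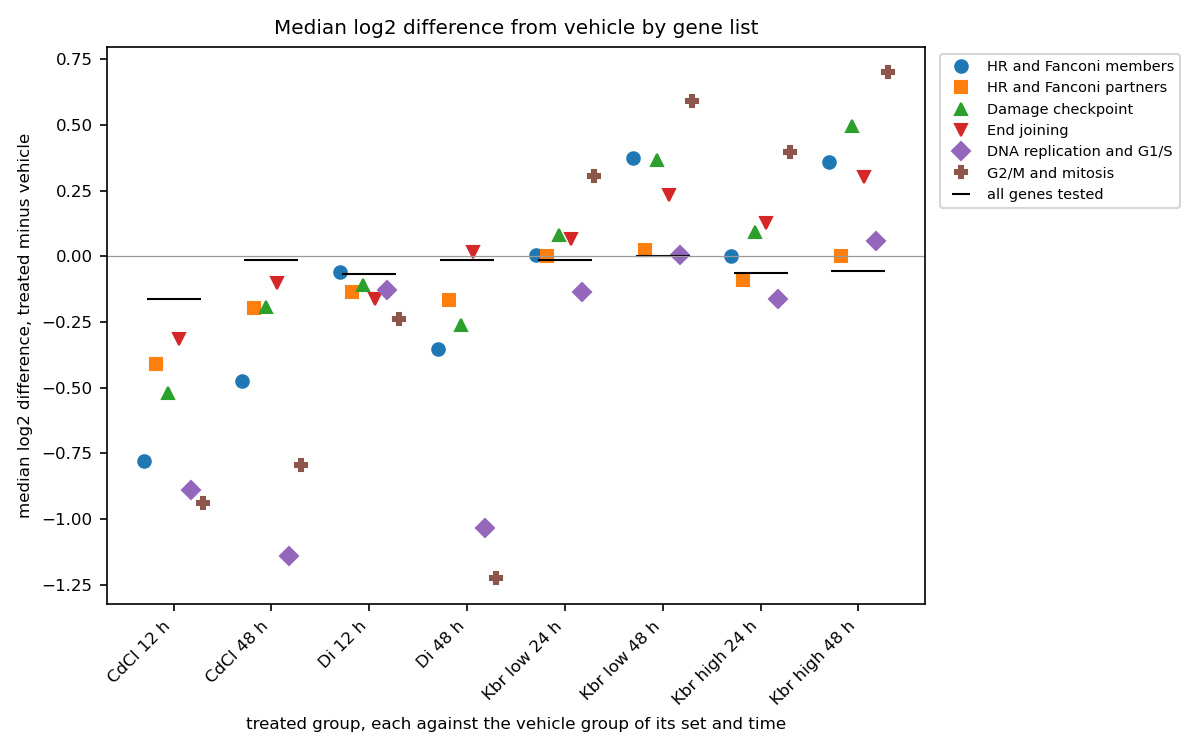
Median log2 difference from vehicle (y axis) of 6 gene lists in the 8 treated groups (x axis), with the median over all genes tested as a black line. With CdCl at 12 h the 31 recombination and Fanconi genes stood at -0.78 and the mitotic genes at -0.94, and with high Kbr at 48 h at 0.36 and 0.70.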

How the data were processed

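Expression was measured on 36 single-colour Affymetrix arrays of HK-2 cells, and groups, times and replicate numbers were taken from the sample descriptions. The authors had deposited normalized log2 values for each probe set, for which the submitters' processing notes name GCRMA, with no version or settings. GCRMA normalizes between arrays, so it takes away part of any change that most genes share, and differences of dim genes are compressed. The values ran from 0.714 to 16.1. Array number limits the precision. The p-values rest on the spread between replicates within groups, pooled over all 12 groups, and not on that of the compared groups alone.

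A probe set was kept if above 4 on at least 3 arrays, and the annotation given with the arrays named its gene. Only probe sets that named a single gene were used. The highest mean over all arrays chose 1 probe set for each of 11092 genes. All 36 arrays were fitted together in limma 3.58.1 (R 4.3.3; lmFit, eBayes), 1 mean for each of 12 groups, with Benjamini-Hochberg adjustment over all genes and a threshold of 0.05. SEs are the model's. Changes of an effect over time and differences between effects were interaction contrasts. Groups were called non-overlapping where every array of one lay above every array of the other. The members and gene lists were chosen with earlier results of these data known. The 12 genes with values per array were the 3 with the largest called, non-overlapping differences of each comparison with vehicle and the largest of each role. For genes chosen by a comparison, non-overlap there was a condition of the choice and is not further support. The fit was tested on simulated arrays with known changes.

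Replicate numbers 1 to 3 recur in every group. In the Kbr set, each of 45 pairs of same-numbered arrays deviated together from their groups (r = 0.218 to 0.701; the median for different numbers was -0.226), so the numbers were taken to pair those arrays, on the data alone. In the other set they ran from -0.348 to 0.416 and were not. The main fit and the fits that left out an array did not use this pairing. Alternatives were the replicate block, only the 18 arrays of a set, quantile normalization, a variance trend, averaged probe sets, median centring, no filter, a floor of 6, and leaving out each array.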

Additional observations from a re-analysis of the deposited data

Results flagged for a closer look

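Several effects differed between times by an interaction test. For CdCl, 48 h against 12 h, 7 of the 31 genes moved upward, with EXO1 furthest at 1.15 ± 0.22 (SE), and 2 moved downward, with BRIP1 furthest at -0.83 ± 0.24. For Di, 3 moved upward, with EME1 furthest at 0.79 ± 0.23, and 10 moved downward, with RMI2 furthest at -1.84 ± 0.22. For high Kbr, 48 h against 24 h, 6 moved upward, with DDIAS furthest at 2.10 ± 0.49, and 1 moved downward, NBN, at -0.36 ± 0.12. For low Kbr 2 moved upward, with RAD54B furthest at 1.09 ± 0.24. Of all genes, 16.4% moved upward and 7.78% downward for CdCl, and 15.1% and 13.9% for Di. For high Kbr these shares were 6.89% and 8.1%, and for low Kbr 2.54% and 1.8%. The furthest gene was taken among those with every group mean above the floor of 4, which leaves out BLM for CdCl and BRIP1 and FANCM for Di. With the mean of probe sets the changes of BRIP1 (-0.13), EME1 (0.39) and NBN (-0.13) were no longer called (adjusted p = 0.783, 0.126 and 0.632).

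Effects at 48 h also differed between compounds by an interaction test, added with the values known. The CdCl effect was above that of high Kbr for 3 genes, with MUS81 furthest at 0.59 ± 0.23, and below it for 16, with DDIAS furthest at -3.53 ± 0.49. The Di effect was above that of high Kbr for 3, with MRE11 furthest at 0.81 ± 0.28, and below it for 17, with DDIAS furthest at -2.95 ± 0.49. Of all genes, 27.9% were above and 22.3% below for CdCl, and 23.6% and 19.9% for Di. DDIAS lay near the floor at 48 h in the first set.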

How the results depend on the processing

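Over the 118 member calls against vehicle, a floor of 6 and the replicate block ended none, a variance trend ended 2, median centring 7, no filter 12, quantile normalization 12 and fitting only the 18 arrays of a set 14. The mean of probe sets ended 7 and turned 2, RAD50 to -0.19 with Di at 48 h and to -0.19 with low Kbr at 48 h. Leaving out an array ended a call in 101 of 708 cases and turned none. The cause was not tested.

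Counts of the 31 genes called moved as follows. With only the 18 arrays of a set, Di at 12 h gave 2 instead of 0, high against low Kbr at 24 h 0 instead of 1, the change of the high Kbr effect 4 instead of 7 and the change of the low Kbr effect 0 instead of 2. With the replicate block, high against low Kbr at 24 h gave 4 and the change of the low Kbr effect 7. With the block and only the 18 arrays, Di at 12 h gave 1, low Kbr at 24 h 9 instead of 5, high against low Kbr at 24 h 3, the change of the high Kbr effect 11 and the change of the low Kbr effect 6. Counts over all genes moved with the fit too. For Di at 12 h they were 695 in the main fit, 1446 with only the 18 arrays and 1241 with the block as well. High against low Kbr at 48 h gave 3 without the filter, 5 with quantile normalization and 5 with median centring, instead of 8. The block changed other calls, all of them gained: for Kbr these were BRCA1 and PALB2 with high Kbr at 24 h (adjusted p = 0.0470 and 0.0350), MRE11 and RAD50 between the doses at 48 h (0.0396 and 0.0236), BLM, RMI1 and FANCB in the change of the high Kbr effect (0.0483, 0.0135 and 0.0425), BARD1 and FANCI in vehicle at 48 h against 24 h (0.0368 and 0.0414), and the calls given in the report. The paired counts moved no other comparison by over 1.5 times.

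Leaving out one array gave 20 to 23 genes for CdCl at 12 h, 13 to 15 at 48 h, 0 to 1 for Di at 12 h, 15 to 17 at 48 h, 9 to 14 for high Kbr at 24 h, 19 to 23 at 48 h, 1 to 4 for low Kbr at 24 h and 14 to 17 at 48 h. It gave 1 to 2 for high against low Kbr at 24 h, 3 to 8 at 48 h, 19 to 25 for CdCl against Di at 12 h and 7 to 10 at 48 h. For changes of effects it gave 7 to 9 (CdCl), 10 to 14 (Di), 5 to 10 (high Kbr) and 1 to 5 (low Kbr). For vehicle it gave 21 to 24 at 48 h against 12 h and 4 to 10 at 48 h against 24 h, and against the high Kbr effect 17 to 20 for CdCl and 18 to 21 for Di.

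Median centring moved the split of higher to lower calls over all genes by over 10 percentage points in 7 comparisons. It gave 1780 higher and 2522 lower for CdCl at 12 h, instead of 1484 and 3386, 226 and 277 for Di at 12 h instead of 185 and 510, 2220 and 2280 for high Kbr at 24 h instead of 1711 and 2806, 140 and 234 for high against low Kbr at 24 h instead of 76 and 411, and 1352 and 1297 at 48 h instead of 716 and 1922. The change of the CdCl effect gave 1362 and 1038 instead of 1824 and 863, and the change of the low Kbr effect 192 and 234 instead of 282 and 200. By smaller shifts it turned the majority for CdCl at 48 h (2446 and 2268 instead of 2292 and 2443), Di at 48 h (2609 and 2291 instead of 2122 and 2651), low Kbr at 48 h (2478 and 2717 instead of 2642 and 2570), CdCl against Di at 48 h (2009 and 2162 instead of 2274 and 1901) and vehicle at 48 h against 24 h (635 and 614 instead of 564 and 794). Signal near the floor limits BLM, FANCB, FANCM, BRIP1 and DDIAS at 48 h in the first set.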

Other observations

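Damage checkpoint genes took a course like that of the recombination genes in some comparisons. Of 18 measured, 13 fell and 1 rose with CdCl at 12 h (median -0.52), where 30.5% of all genes fell and 13.4% rose. With Di at 48 h, 8 fell and 2 rose (-0.26), where 23.9% of all genes fell and 19.1% rose. With high Kbr at 48 h, 2 fell and 11 rose (0.50), where 34.5% of all genes fell and 27.3% rose. The following genes were chosen after their values were seen. CHEK1, the checkpoint kinase that follows ATR, had -0.41 ± 0.16 (SE) with CdCl at 12 h, -1.32 ± 0.16 with Di at 48 h and 0.83 ± 0.16 with high Kbr at 48 h (limma, adjusted p = 0.0370, 9.24e-08 and 5.2e-05). HUS1, part of the clamp that loads at damaged DNA, rose in each of these, by 0.62 ± 0.16, 1.60 ± 0.16 and 1.72 ± 0.16. ATM, the kinase that responds to breaks, fell with high Kbr at 48 h (-1.34 ± 0.25).

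Of 8 measured genes of end joining, the other main repair of breaks, 1 rose and 4 fell with CdCl at 12 h, 1 fell with Di at 48 h, and 4 rose and 1 fell with high Kbr at 48 h. PRKDC, its kinase, fell in all 3, by 0.43 ± 0.15, 0.42 ± 0.15 and 0.70 ± 0.15. The shares of all genes called in these comparisons are those given with the checkpoint genes.

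Of 21 measured p53 target genes, 5 rose and 8 fell with CdCl at 12 h, 8 rose and 1 fell with Di at 48 h, and 7 rose and 8 fell with high Kbr at 48 h. CDKN1A, the cell cycle inhibitor induced by p53, rose by 1.09 ± 0.10, 1.84 ± 0.10 and 1.51 ± 0.10 in these comparisons. Their shares over all genes are also those given with the checkpoint genes.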
